A study of Mus musculus with 5 samples.

Results

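The cells described here were 377 dendritic-like cells, 0.981% of the 38417 cells that passed filtering, in 5 mouse kidney libraries that had been sorted for CD4 T cells and read as single-cell 3′ RNA. They were chosen by transcripts measured in the same cells, so those transcripts are given as a description. A cell was taken when it had at least 500 genes and under 10% mitochondrial UMIs (unique molecular identifiers, each counting 1 captured transcript), at least 3 UMIs of the class II gene H2-Ab1, fewer than 5 UMIs of C1qa, C1qb and C1qc together, fewer than 3 detected genes of a 6-gene monocyte set (Fn1, F13a1, Vcan, Chil3, Hp, Gda) and at least 2 detected genes of a 6-gene panel (Cd209a, Clec10a, Flt3, Plbd1, Kmo, Olfm1). The mice were 10 weeks old and all 5 libraries came from kidneys after ischemia-reperfusion injury. The 2 control libraries were Il1rl1fl/fl, so they carried the floxed allele of Il1rl1, which encodes the interleukin-33 receptor ST2, without Cre, although their titles call them wild type. The 3 knockout libraries were Il1rl1fl/fl Foxp3YFP-Cre, in which the promoter of the regulatory T cell gene Foxp3 drives Cre, so the deletion was aimed at T cells and not at dendritic cells. Every mouse in the comparison was therefore homozygous for the floxed allele, and Foxp3YFP-Cre was carried in the knockout group alone. The labels do not say whether a library came from 1 mouse or from pooled mice, so p-values measure the spread between these libraries, which may be technical in part. Control 1 held 193 of the cells, control 2 held 65, and knockouts 1, 2 and 3 held 34, 71 and 14. The cells were sorted with antibodies to CD45, TCRβ and CD4, so dendritic-like cells are outside the gate that the labels describe.

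Conventional dendritic cells take up antigen, present peptides on MHC class II and migrate to lymph nodes to prime T cells. They arise from precursors that need the receptor Flt3 and express the transcription factor Zbtb46. Type 1 cells cross-present antigen, depend on Irf8 and carry Xcr1 and Clec9a, whereas type 2 cells depend in part on Irf4 and carry lectins such as Cd209a, Clec10a and Mgl2. In the kidney both types sit in the interstitium beside resident macrophages, and injury recruits monocytes that share several of their markers.

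Class II genes were read together in these cells, and their promoters share a Y box, the element that the factor NF-Y binds in class II promoters. The 250 bases before the RefSeq gene start (build GRCm38.p6, same assembly as mm10) are shown for 3 class II genes, 5′ to 3′ on the gene's strand, with the match to the Y-box letters TGATTGG, or its reverse complement, in capitals. The window is chr17:34287824-34288073 on the minus strand for H2-Aa, chr17:34305617-34305866 on the plus strand for H2-Eb1, and chr17:34152941-34153190 on the plus strand for H2-DMb1, which encodes a chain of the peptide-loading molecule H2-DM.
H2-Aa: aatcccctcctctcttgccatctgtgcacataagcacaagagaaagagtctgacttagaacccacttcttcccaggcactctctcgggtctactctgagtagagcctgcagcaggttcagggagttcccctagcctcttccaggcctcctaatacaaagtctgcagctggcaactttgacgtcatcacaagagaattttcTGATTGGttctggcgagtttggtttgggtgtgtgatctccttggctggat
H2-Eb1: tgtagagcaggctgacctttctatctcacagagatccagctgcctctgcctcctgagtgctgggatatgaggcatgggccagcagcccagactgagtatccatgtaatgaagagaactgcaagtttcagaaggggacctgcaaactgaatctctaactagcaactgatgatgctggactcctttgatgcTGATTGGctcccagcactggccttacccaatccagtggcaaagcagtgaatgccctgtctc
H2-DMb1: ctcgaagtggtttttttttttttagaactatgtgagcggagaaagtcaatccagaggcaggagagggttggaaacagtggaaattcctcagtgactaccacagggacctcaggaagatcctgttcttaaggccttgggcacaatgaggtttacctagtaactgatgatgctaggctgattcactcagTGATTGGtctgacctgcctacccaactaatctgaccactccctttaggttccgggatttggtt
The match began 50 bases before the start of H2-Aa, 61 before that of H2-Eb1 and 63 before that of H2-DMb1. The same letters were found on either strand in 2375 of 32851 RefSeq windows of that length, or 7.23%, so a match alone is common.

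Near the limits of the rule, 75 of the 377 cells had exactly 2 panel genes, and 233 cells just outside had 1. H2-Ab1 stood at 3 UMIs in 10 cells, and 8 cells with 2 UMIs were just outside. Exactly 2 of the monocyte genes were seen in 24 cells inside, and 23 cells with 3 such genes were outside. The complement genes summed to 4 UMIs in 9 cells inside and to 5 in 7 cells outside. All 6 panel genes were detected in 90 cells.

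The panel genes, H2-Ab1 and every other gene of these cells describe how they were chosen, so the levels beside other cells are given with no test. Levels beside other classes are CPM, the UMIs of a gene summed over the cells of a class in 1 library and scaled to 1000000 UMIs of all genes, averaged over 5 libraries. The other classes were also chosen by their transcripts. Monocyte-like cells had fewer than 5 C1q UMIs and at least 3 of the monocyte genes, and B cells had fewer than 5 C1q UMIs and at least 3 of 4 B cell genes. T cells were in none of these classes and had at least 2 UMIs of Cd3d, Cd3e, Cd3g and Trac together, fewer than 3 H2-Ab1 UMIs and fewer than 2 panel genes. The low panel and H2-Ab1 levels of T cells are therefore fixed in part by that choice. The label held for the group and not for each cell. Cd209a, the lectin that gives the cells their name, was detected in 209 of 377 cells (55.4%, from 41.2% to 60.6% by library) and Clec10a in 183. Plbd1 was detected in 357 cells, Napsa, an aspartic protease of the endosome, in 345, Flt3 in 251 and Zbtb46 in 236, and neither Napsa nor Zbtb46 was part of the rule. In T cells of the same libraries, which should lack these genes and measure free RNA, Zbtb46 was detected in 1.00% to 3.30% of cells and Napsa in 0.512% to 1.84%. That may understate free RNA, because T cells were limited in H2-Ab1 and panel genes. Napsa was also frequent in monocyte-like cells, at 57.9% to 88.9% by library against 71.4% to 94.8% of the dendritic-like cells. C1q macrophages had it in 9.45% to 21.4%. Zbtb46 was detected in at most 7.37% of monocyte-like cells and 8.12% of C1q macrophages. Median depth was higher in the dendritic-like cells than in T cells (34579 against 13675 UMIs in control 1, and 12253 against 4108.5 in control 2).

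Cd209a averaged 240 CPM in the dendritic-like cells, 12.3 in C1q macrophages (cells with at least 5 C1q UMIs and 3 H2-Ab1 UMIs), 14.3 in monocyte-like cells and 0.0879 in T cells. Zbtb46 averaged 86.8 CPM and reached no more than 6.31 in any of these other classes. Among genes with at least 100 CPM in each library, the 12 that led the highest other class by the largest ratio, B cells aside, were Ctnnd2, Klrd1, Wdfy4, Dapk1, Cfp, Ccnd1, Ciita, Cst3, Cbfa2t3, Syngr2, H2-DMb1 and Gsn. Wdfy4, needed for cross-presentation, averaged 322 CPM against at most 67.9 in those classes, and Ciita, the master regulator of class II transcription, 313 against 84.7. B cells, left out of that ratio, averaged 201 CPM of Wdfy4 and 111 CPM of Ciita. Cst3, a cystatin abundant in dendritic cells, averaged 2418 CPM against 768 in C1q macrophages. The macrophage gene Mertk was seen in 1 cell, Adgre1 averaged 6.29 CPM against 138 in C1q macrophages, and Lyz2 averaged 177 against 5316 in monocyte-like cells. The limits on C1q and monocyte genes in the rule fix part of that separation.

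**Figure D1:**
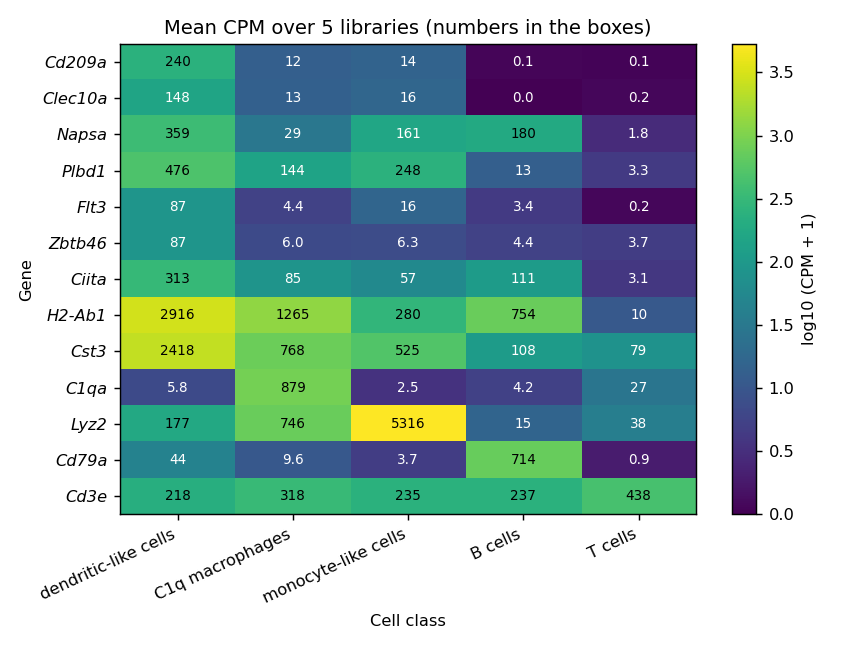
Mean level of 13 genes (rows) in 5 cell classes (columns), as CPM of summed UMIs averaged over 5 libraries; colour is log10 (CPM + 1) and the number in each box is the CPM. The 9 genes from Cd209a down to Cst3 are highest in the dendritic-like cells, C1qa in C1q macrophages (879 CPM), Lyz2 in monocyte-like cells and Cd3e in T cells.

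Transcripts of other cell types were present in the dendritic-like cells, and no doublet caller was applied. Cd3d, Cd3e, Cd3g and Trac encode parts of the T cell receptor and its signalling chains. At least 1 of their UMIs was present in 352 cells, while 25 cells had none. After each cell was thinned to 2000 UMIs the share was 64.8%, 78.5%, 85.3%, 70.0% and 78.6% in controls 1 and 2 and knockouts 1, 2 and 3, against 94.7% to 98.4% of T cells. Summed, those 4 genes gave 1003, 1123, 1550, 1297 and 1635 CPM in the dendritic-like cells and from 2300 to 2489 CPM in T cells, whose level is fixed in part because they were chosen on those UMIs. C1q macrophages, which were not, had 1877, 1764, 1882, 1991 and 1765 CPM, with 92.4% to 97.5% of cells positive before thinning, and monocyte-like cells 989 to 1604 CPM. The other myeloid classes of these libraries thus held T cell transcripts as well. All 13 genes of the T cell marker list were seen in every library, and their sum ran from 3906 to 6689 CPM against 8323 to 8789 CPM in T cells. The dendritic-like cells had a median of 2.06 to 3.24 times the UMIs of all retained cells of their library. A droplet with a T cell and a dendritic cell, 2 attached cells and free T cell RNA cannot be told apart in these counts.

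The make-up of the T cell transcripts was near that of the sorted T cells for some genes and not for others. Per 100 UMIs of the 4 receptor genes the dendritic-like cells had 1.26, 1.61, 1.91, 1.61 and 0.968 UMIs of Foxp3, and T cells 1.40, 1.49, 1.23, 1.31 and 1.02, in the same library order. Cd4 stood at 14.1 to 17.9 per 100 in the dendritic-like cells and 15.4 to 20.0 in T cells. Lef1, a transcription factor of naive T cells, stood at 22.0, 47.7, 17.2, 17.9 and 23.2 per 100 in the dendritic-like cells, above the 15.4, 23.1, 13.2, 11.7 and 14.2 of T cells in every library. Monocyte-like cells, at 21.5, 37.7, 14.7, 15.3 and 20.9 per 100 of Lef1, were also above T cells in every library. C1q macrophages, at 14.8, 30.9, 14.5, 12.6 and 17.8, were above them in all but control 1. Il1rl1 was also higher in the dendritic-like cells than in T cells in every library, and in part in the other myeloid classes. Its values are given beside its level by genotype. Whether its UMIs came from T cells was not tested. At least 2 genes of a B cell set that includes Cd79a, Cd79b and Ms4a1 were detected in 42 cells, 34 of them in control 1, 2 in control 2 and 6 in knockout 1. The 10-gene B cell list summed to 1216, 454, 1402, 196 and 158 CPM across the 5 libraries. The 9-gene proximal tubule list reached 1555 CPM in control 2 against at most 47.5 in the other 4 libraries. The 6-gene plasma cell list gave 849, 105, 79.6, 90.6 and 47.5 CPM across the 5 libraries, so it was highest in control 1. Control 1 held 5254 of the 5257 Jchain UMIs, which were found in 12 cells over all libraries. The NK cell list stayed at or below 23.9 CPM, with Ncr1 and Klra8 at 0, and the neutrophil list at or below 8.96, with S100a8 and Retnlg at 0. No barcode was shared between the dendritic-like cells of any 2 libraries, while library pairs shared 2 to 39 barcodes over all cells.

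Within the group each cell was placed in 1 subset, with B cell genes taken first, then plasmacytoid genes and then maturation genes. Of cells outside those subsets, 181 (48.0% of the group) had Cd209a and neither Xcr1 nor Clec9a, and 59 (15.6%) had Xcr1 or Clec9a without Cd209a. A further 14 had both kinds of marker. In the subsets taken first, 42 cells had B cell genes and 13 had at least 3 of 5 plasmacytoid genes (Siglech, Ccr9, Cox6a2, Pacsin1, Klk1). Another 6 had at least 2 of 4 maturation genes (Fscn1, Ccl22, Cacnb3, Nudt17). The remaining 62 cells had none of these, and these limits were set after the counts were seen. The Cd209a share was 47.7%, 46.2%, 41.2%, 54.9% and 42.9% across the 5 libraries, and exact (Clopper-Pearson) 95% intervals, which cover counting error alone, overlapped for each pair. Xcr1 or Clec9a cells made up 17.6%, 16.9%, 11.8%, 12.7% and 7.14%, the last being 1 cell of 14. Cells with B cell genes made up 17.6% of the group in control 1 and in knockout 1, 3.08% in control 2, and none was found in knockouts 2 and 3.

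**Figure D2:**
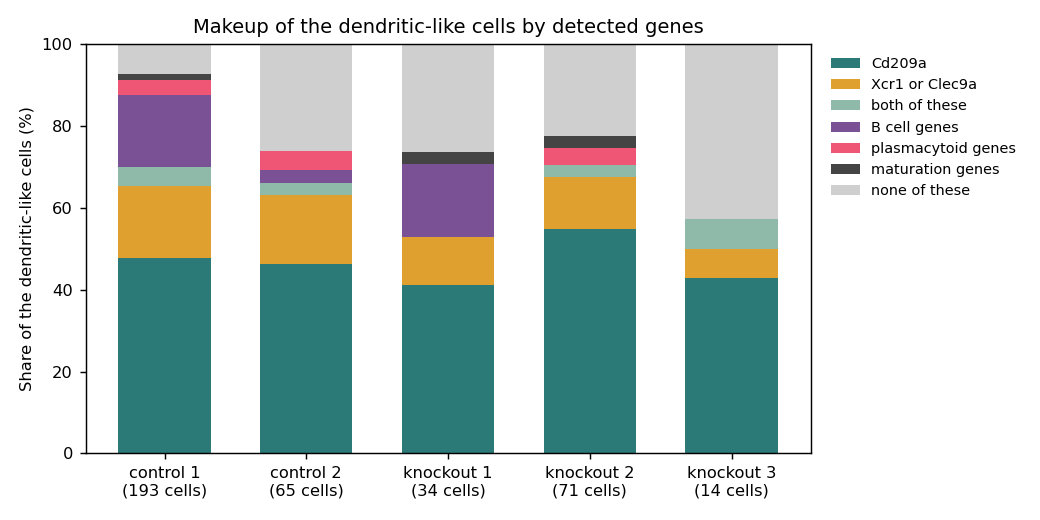
Makeup of the dendritic-like cells in each library, as the percent of its cells (bars stacked to 100) by detected genes; the number of cells stands under each bar. Cd209a cells are the largest part in every library except knockout 3, where they equal the cells with none of the genes at 42.9%, and B cell genes appear in controls 1 and 2 and knockout 1.

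Genes that did not define these 2 subsets followed the known division of dendritic cells. Irf8, the type 1 factor, averaged 894 CPM in Xcr1 or Clec9a cells (246 to 1381 by library) and 11.4 in Cd209a cells (0 to 22.3), with no overlap. Naaa, a lysosomal amidase, averaged 679 CPM in Xcr1 or Clec9a cells and 84.6 in Cd209a cells, and Tlr3, the sensor of double-stranded RNA, 173 and 1.93. These levels also did not overlap between the subsets.

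In the other direction Itgam, which encodes CD11b, averaged 184 CPM in Cd209a cells and 9.82 in Xcr1 or Clec9a cells, and Sirpa, a receptor of the type 2 lineage, 124 and 4.78. Mgl2 averaged 366 CPM in Cd209a cells, from 161 to 748 by library, and was seen in control 1 alone among Xcr1 or Clec9a cells. Il1b, an inflammatory cytokine gene, averaged 179 and 16.0. Zbtb46, shared by both types, averaged 107 CPM in Cd209a cells and 105 in Xcr1 or Clec9a cells, and H2-Ab1 3667 and 2927. The Xcr1 or Clec9a cells of knockout 3 were a single cell, which had the lowest levels of Irf8, Naaa, Tlr3, Zbtb46 and H2-Ab1 among the libraries of that subset. Clusters were not used, so these are levels of cells split on 3 genes once the other subsets were set apart, given with no test.

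**Figure D3:**
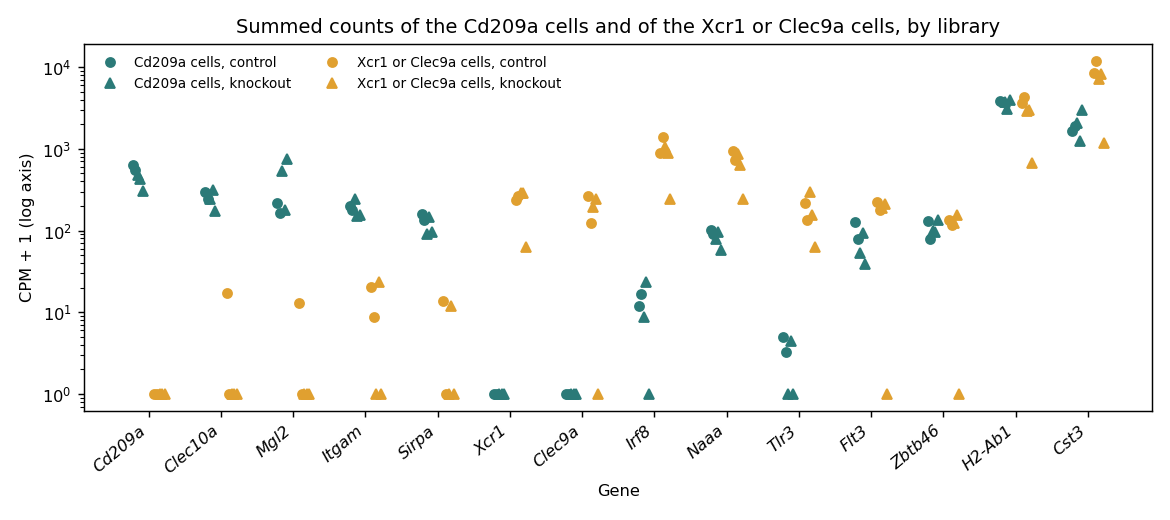
CPM + 1 (log axis) of 14 genes in Cd209a cells (green) and Xcr1 or Clec9a cells (yellow), 1 point for each library (circles control, triangles knockout). Itgam, Sirpa and Mgl2 are higher in the green points, Irf8, Naaa and Tlr3 in the yellow points, and Zbtb46 and H2-Ab1 lie together except for the single yellow cell of knockout 3.

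The genotypes were not separated by the share of dendritic-like cells beyond the spread of the libraries. Of all retained cells they were 2.03% and 0.720% in controls 1 and 2, and 0.802%, 0.688% and 0.262% in knockouts 1, 2 and 3. Control 1 was highest and knockout 3 lowest, and control 2 lay among the knockouts. The mean was 1.38% ± 0.930 (SD, n = 2) in controls and 0.584% ± 0.285 (SD, n = 3) in knockouts (two-sided exact permutation p = 0.2). The smallest p that 2 against 3 libraries allow is 0.1, so this design cannot reach 0.05.

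As a share of cells with at least 3 H2-Ab1 UMIs they were 21.6%, 9.26%, 8.81%, 8.67% and 3.52%, and both controls were above every knockout (difference in means 8.44 percentage points, two-sided exact permutation p = 0.1, adjusted over 2 shares p = 0.2). The interval of control 2 (7.22% to 11.6%) held the values of knockouts 1 and 2. The rule rests on detected UMIs, and control 1 was the deepest library, with a median of 13534 UMIs in retained cells against 3786 in control 2, 7546, 4433 and 4115.5 in the knockouts. With every cell thinned to 2000 UMIs before the rule, the share of class II cells was 33.1%, 9.43%, 8.82%, 13.2% and 3.15%, and the groups overlapped. Of all thinned cells it was 1.31%, 0.458%, 0.384%, 0.471% and 0.0886%. Without control 1 the difference in the share of retained cells was 0.136 points, and without control 2 it was 1.45 points, against 0.794 with both and in the same direction. The difference in the share of class II cells was 2.26 points without control 1 and 14.6 points without control 2, against 8.44 with both.

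**Figure D4:**
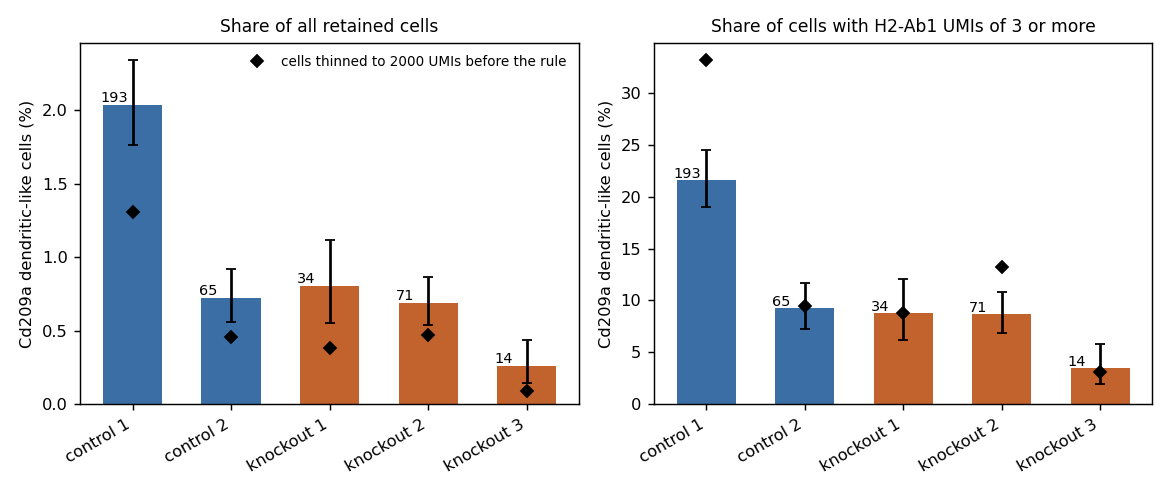
Dendritic-like cells as a percent of all retained cells (left) and of cells with at least 3 H2-Ab1 UMIs (right), 1 bar for each library (blue control, orange knockout) with exact 95% intervals and the number of cells beside it; diamonds show the percent after thinning to 2000 UMIs. Control 1 is highest and knockout 3 lowest on both panels, and the thinned class II share of knockout 2 (13.2%) is above that of control 2 (9.43%).

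Il1rl1, the gene that Cre removes in Foxp3 cells, is given first among genes by genotype. In the dendritic-like cells it stood at 27.9 and 18.6 CPM in controls 1 and 2 and at 102, 61.5 and 56.8 CPM in knockouts 1, 2 and 3. Here and in all comparisons by genotype, CPM of the dendritic-like cells are scaled with TMM factors, which correct for differences in RNA composition. The knockouts were above both controls, by 3.09-fold (log2 difference 1.63 ± 0.30 (SE)). That did not pass across all genes with edgeR's quasi-likelihood test (Benjamini-Hochberg adjusted p = 0.194) and passed with DESeq2 (adjusted p = 0.0185). T cells gave 15.9, 13.8, 67.7, 38.7 and 28.5 CPM, in the same order, so the same libraries were high. The assay counts transcript ends, the floxed exons are not given in the sources used here, and the level is therefore no check of the deletion. Il1rl1 UMIs were found in 60 of 193 cells in control 1, 41 of them in the Cd209a subset, and over 5 libraries Il1rl1 averaged 85.0 CPM in Cd209a cells and 16.0 in Xcr1 or Clec9a cells. Per 100 UMIs of the 4 T cell receptor genes Il1rl1 had 2.67, 1.61, 6.46, 4.69 and 3.55 UMIs in the dendritic-like cells and 0.689, 0.566, 2.72, 1.62 and 1.22 in T cells. C1q macrophages had 1.02, 0.910, 2.75, 1.57 and 1.41, above T cells in all but knockout 2. Monocyte-like cells had 1.49, 0.221, 7.37, 1.36 and 1.21, above T cells in control 1 and knockout 1 and above the dendritic-like cells in knockout 1.

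Of 8922 genes tested between genotypes in the summed counts of dendritic-like cells, 3 were called, each higher in knockouts (0.0336% of the genes tested), and no gene was called lower. They were Ccl17, a chemokine that dendritic cells make and that draws Ccr4-bearing T cells, Ifng, the cytokine interferon-gamma of T and NK cells, and St6galnac3, a sialyltransferase. At an unadjusted p under 0.05 there were 535 genes, 343 higher and 192 lower. In 934 genes (10.5%) every knockout library lay above both controls, and in 938 (10.5%) every one lay below.

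Ccl17 (ENSMUSG00000031780, mm10 chr8:94810453-94812036, plus strand, protein-coding) stood at 16.4 and 15.3 CPM in controls 1 and 2 and reached 135, 76.6 and 72.3 CPM in knockouts 1, 2 and 3. The 3 knockouts were above both controls, with a mean of 94.5 ± 34.7 CPM (SD, n = 3) against 15.8 ± 0.752 (SD, n = 2), or 6.11-fold (log2 2.61 ± 0.31 (SE), edgeR adjusted p = 0.0278). C1q macrophages did not exceed 4.95 CPM of Ccl17 and T cells 0.222 CPM in any library. It was found in 10 of 193, 2 of 65, 3 of 34, 9 of 71 and 3 of 14 cells, or 5.18%, 3.08%, 8.82%, 12.7% and 21.4%, against at most 0.122% of T cells. One cell of knockout 1, with maturation genes and 65957 UMIs, held 114 of that library's 116 Ccl17 UMIs. In knockout 2, 1 cell with maturation genes held 55 of 76, and in control 2, 1 cell held 13 of 14. When the UMIs of the top cell for each gene were subtracted in every library, the Ccl17 difference was 0.96 on the log2 scale (edgeR adjusted p = 1), and within the Cd209a subset, fitted without knockout 3 for its few cells, it was -0.70 (adjusted p = 0.995). The call therefore rested on single cells, chiefly in knockouts 1 and 2, and it was lost without knockout 1 (adjusted p = 0.0633). Among genes enriched in dendritic-like cells alone the difference was 2.94 and did not pass (adjusted p = 0.169).

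The Ccl17 promoter is shown because the gene had the smallest p of the comparison and because its window holds a palindrome of the kind bound by STAT6, the factor downstream of interleukin-4. The window is chr8:94810203-94810452 on the plus strand (GRCm38.p6, RefSeq), and the match to TTC and GAA with any 4 bases between them, searched on both strands, is in capitals.
Ccl17: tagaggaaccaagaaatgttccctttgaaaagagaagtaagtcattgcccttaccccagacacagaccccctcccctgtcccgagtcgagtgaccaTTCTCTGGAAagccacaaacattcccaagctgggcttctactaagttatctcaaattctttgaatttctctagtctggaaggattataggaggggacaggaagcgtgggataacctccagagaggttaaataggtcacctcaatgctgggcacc
The match began 154 bases before the gene start. These letters were found in 1923 of 32851 windows, or 5.85%, and the counts hold no measure of STAT6 binding.

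Ifng (ENSMUSG00000055170, chr10:118441046-118445892, plus strand, protein-coding) had 13.3 and 5.46 CPM in control libraries against 286, 167 and 56.8 CPM in knockout libraries. The knockouts were above both controls, by 16.3-fold (log2 4.03 ± 0.50 (SE), edgeR adjusted p = 0.0278). One cell with B cell genes held 230 of the 247 Ifng UMIs of knockout 1 and 77 of its 78 UMIs of the T helper cytokine Il21. One cell with both Cd209a and Xcr1 or Clec9a, and with 42312 UMIs, held 136 of 166 Ifng UMIs in knockout 2 and 25 of its 26 Il21 UMIs. These 2 cells had 24 and 87 UMIs of the 4 T cell receptor genes. T cells had 29.9, 42.9, 35.7, 110 and 40.6 CPM of Ifng. With each gene's top cell subtracted the Ifng difference was 1.52 on the log2 scale (edgeR adjusted p = 0.304), and without the cells with B cell genes it was 2.88 (adjusted p = 0.301). The call was also lost without knockout 1 (adjusted p = 0.0633) and without knockout 2 (0.0534). With at least 3 panel genes required, a fit that left out knockout 3, it was lost too (log2 3.02, adjusted p = 0.146).

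St6galnac3 (ENSMUSG00000052544, chr3:153198266-153725174, minus strand, protein-coding) had 160 and 143 CPM in control libraries against 450, 383 and 330 CPM in knockout libraries. The groups did not overlap, and the knockouts were 2.58-fold higher (log2 1.37 ± 0.18 (SE), edgeR adjusted p = 0.0284). Its UMIs were spread over 118 of 193, 28 of 65, 29 of 34, 47 of 71 and 10 of 14 cells, and with each gene's top cell subtracted the difference was 1.46 (adjusted p = 0.00745). T cells of the same libraries had higher levels, at 320 and 332 CPM in controls against 745, 733 and 447 in knockouts, and C1q macrophages had 236, 226, 554, 628 and 346 CPM. The difference between genotypes was thus also seen in the other classes, and the part that T cell RNA had in it was not tested. The call was lost without control 2 (adjusted p = 0.126), without knockout 1 (0.121) and without knockout 2 (0.0534).

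**Figure D5:**
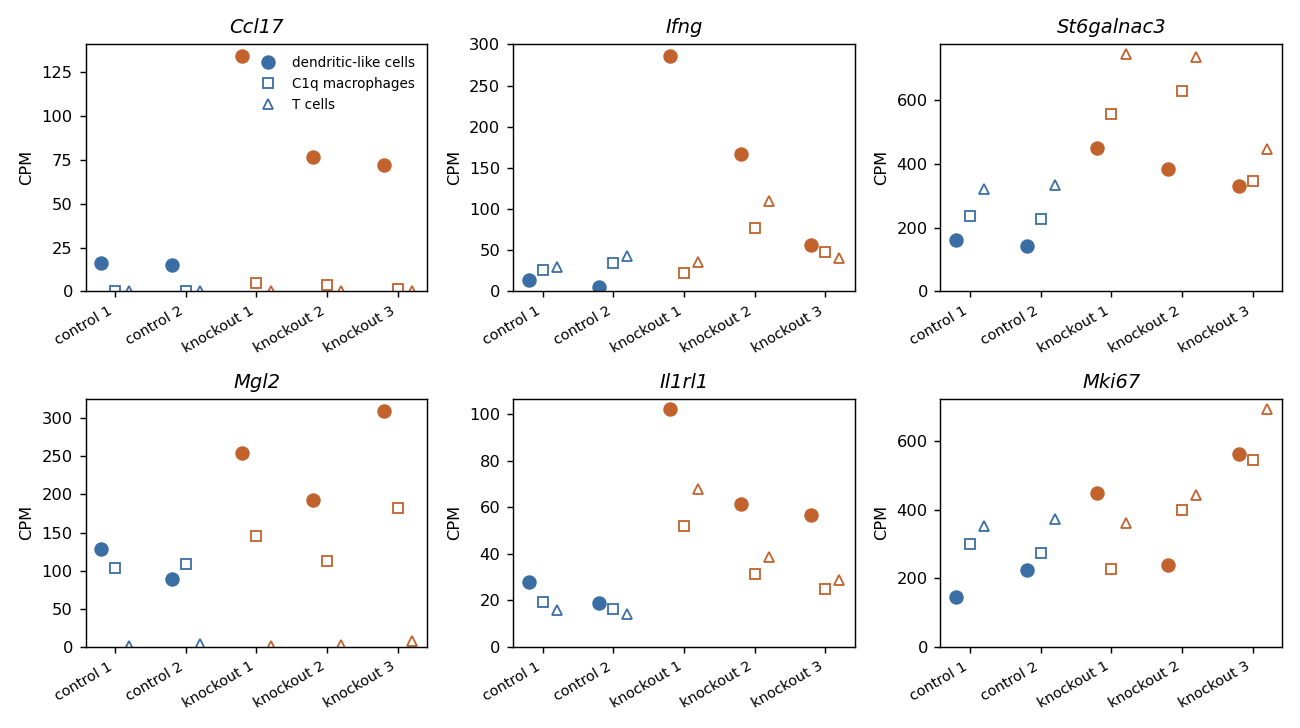
CPM of 6 genes by library in dendritic-like cells (filled circles, TMM-scaled), C1q macrophages (open squares, unscaled) and T cells (open triangles, unscaled); blue marks controls and orange knockouts. Ccl17 is near 0 outside the dendritic-like cells, whereas St6galnac3 and Il1rl1 are higher in knockouts in all 3 classes.

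Mgl2, a galactose-binding lectin of type 2 cells, had 129 and 88.5 CPM in controls against 254, 193 and 310 CPM in knockouts. The groups did not overlap and the difference was 2.17-fold (log2 1.12 ± 0.23 (SE)), which did not pass with edgeR (adjusted p = 0.206) and passed with DESeq2 (adjusted p = 0.0182). C1q macrophages had 103, 109, 145, 112 and 183 CPM of Mgl2 and T cells at most 7.33. Cd209a, another lectin of type 2 cells, stood at 368, 276, 216, 282 and 87.8 CPM, with overlapping groups, a description with no test because the rule used this gene. Ccl22, a chemokine gene that lies near Ccl17 on chromosome 8 and shares its receptor, had 7.35, 7.65, 40.6, 195 and 5.16 CPM. Knockout 3 fell below both controls (edgeR adjusted p = 0.241). DESeq2 called 21 genes, each higher in knockouts, of the 6153 for which it gave an adjusted p (0.341%), among them the 3 named above.

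The other genes with the smallest p among those higher in knockouts did not pass with edgeR, although all but Hdgfl3 passed with DESeq2 (adjusted p from 0.00127 to 0.0198). Diaph3, a formin of the actin skeleton, had 37.2 and 33.9 CPM in controls and 109, 92.8 and 124 CPM in knockouts (adjusted p = 0.0535). Rora, a nuclear receptor (log2 1.07, adjusted p = 0.0828), Tnfrsf4, the costimulatory receptor OX40 (1.29, 0.121), Ddit4 (2.82-fold, 0.121), the stress-induced inhibitor of mTORC1, and Ctla2a (1.53, 0.187) followed. So did Rrm2, a subunit of ribonucleotide reductase (1.82, 0.187), the tubulin-binding Stmn1 (1.24, 0.194) and Hdgfl3 (1.36, 0.194). T cells also held these transcripts, with knockout means of 343 CPM for Rora and 127 CPM for Tnfrsf4, above the 225 ± 23.9 and 102 ± 14.5 CPM (SD, n = 3) of the dendritic-like cells. All 13 T cell marker genes had positive log2 differences in the dendritic-like cells, with a median of 0.36 against -0.01 over all genes tested. In 9 of the 13 every knockout library lay above both controls, against 10.5% of all genes tested, and none passed. Cd3e, chosen after its values were seen, stood at 211, 202, 226, 225 and 243 CPM.

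Among genes lower in knockouts none passed. Rnd3, a small GTPase that loosens the actin skeleton, had 127 and 118 CPM in controls and 64.9, 65.5 and 31.0 CPM in knockouts. The groups did not overlap, and the difference was -1.04 ± 0.23 (SE) on the log2 scale (edgeR adjusted p = 0.247). T cells held at most 0.42 CPM of Rnd3 and C1q macrophages at most 15.3. Bcl11a, a transcription factor of dendritic and B cell development, had 208, 166, 96.2, 123 and 31.0 CPM (log2 -0.98, adjusted p = 0.454), with T cells at or below 0.541. The other lower genes by p were Grm8 (-2.83, adjusted p = 0.314), a glutamate receptor, Il31ra (-1.67, 0.411), a cytokine receptor, Zdhhc14 (-0.90, 0.445), a palmitoyltransferase, and Banp (-1.30, 0.451). Gng12 (-0.85, 0.474), a G protein subunit, Ugcg (-0.92, 0.454), the glucosylceramide synthase, and the troponin gene Tnni2 (-1.32, 0.491) were also among them. Spp1, which encodes osteopontin, had 363 CPM in control 2, the library with the high tubule list, and 9.28 to 15.5 CPM in the other 4 (adjusted p = 0.491). The chaperone genes Hsph1 and Hspa8 differed by -1.42 and -0.69 (adjusted p = 0.334 and 0.401), and T cells had means of 1294 CPM of Hspa8 in controls and 973 in knockouts.

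The genes that mark dendritic cells were not called in either direction. Flt3 had 136, 106, 77.7, 114 and 10.3 CPM, so knockout 3 stood far below the other libraries. Irf8 had 269, 329, 268, 164 and 36.1 CPM, again with knockout 3 lowest (edgeR adjusted p = 0.884). Zbtb46 ran from 75.4 to 110 CPM with overlapping groups (log2 -0.13 ± 0.21 (SE)). All 9 tested genes of the conventional dendritic cell list, all 9 of type 1 and 8 of 10 of type 2 had negative values, with medians of -0.50, -0.45 and -0.23, and none passed. The rule used the panel genes, which are in part among these lists, so their values are a description, Plbd1 at -0.57 and Olfm1 at -0.35 with groups that did not overlap, and Kmo at -0.27 and Clec10a at -0.20 with groups that did. Knockout 3 held 14 cells and its summed profile correlated less with the other libraries than they did with each other (0.830 to 0.848 against 0.923 to 0.952 over all genes, as log CPM, a description of shared genes). Summed without TMM factors, the conventional dendritic cell list gave 1534, 1306, 1147, 1378 and 696 CPM in controls 1 and 2 and knockouts 1, 2 and 3. The T cell list gave 3906, 4563, 5768, 4635 and 6689 CPM in the same order. Knockouts 1 and 3 thus had the lowest dendritic and the highest T cell sums, with knockout 2 near control 2. The relation between these sums was not tested.

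Antigen presentation genes outside the rule gave no call. H2-Ab1 had 3346 and 3125 CPM in controls and 3281, 3069 and 2040 CPM in knockouts, with overlapping groups, and is given with no test because the rule used it. H2-Aa differed by -0.23 ± 0.27, H2-Eb1 by -0.19 ± 0.23, the invariant chain gene Cd74 by -0.36 ± 0.26 and Ciita by -0.27 ± 0.23. Of 20 class II presentation genes, H2-Ab1 among them, 17 had negative values (median -0.25) and none passed. Of 20 class I presentation genes 11 were positive (median 0.04), H2-K1 being the one of the 4 most abundant whose groups did not overlap (log2 0.35, adjusted p = 0.807).

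Costimulatory genes gave no call either. Cd86 had 99.0, 44.8, 77.7, 66.5 and 31.0 CPM, Cd80 32.9, 14.2, 27.8, 40.3 and 36.1, and the groups overlapped for both. Cd274, which encodes PD-L1, had 22.9 to 65.5 CPM (log2 0.42 ± 0.33 (SE)), and Cd40 0 to 28.2. Of 18 tested costimulation and checkpoint genes 10 were positive (median 0.05), with Cd48 and Btla the most abundant at -0.08 and -0.68. Ccr7, the receptor that guides dendritic cells to lymph nodes, differed by -0.42 ± 0.33, and Ccr2, a receptor of monocyte-derived cells, by -0.15 ± 0.16. Of 21 chemokine receptor and migration genes 8 were positive. Tnfsf4, the ligand of OX40, had 33 UMIs in 12 cells and was not tested.

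Cytokine genes of dendritic cells were scarce. Il12b and Il23a had 1 UMI each, Il6 had 3, and none of these was tested. Il10 had 91 UMIs in 3 cells, 83 of them in knockout 1. Il1b had 84.8, 84.1, 46.4, 83.7 and 176 CPM and Ltb, a lymphotoxin gene that T cells also express, 289 to 532 CPM, with overlapping groups for both. Of 7 tested chemokine genes 5 were positive (median 0.97) and 1, Ccl17, passed. Ccl5, which T cells express at a mean of 716 CPM in controls, had 312, 193, 293, 344 and 986 CPM in the dendritic-like cells (edgeR adjusted p = 0.825). Of 11 tested genes of the mature migratory list 9 were positive and Ccl17 alone passed.

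In the IL-1 receptor family list 8 of 13 tested genes were positive and none passed. Il18r1, a chain of the interleukin-18 receptor, had 106, 92.9, 182, 245 and 129 CPM and Il18rap 71.7, 44.8, 98.6, 197 and 108, with groups that did not overlap (edgeR adjusted p = 0.314 and 0.394). T cells had means of 175 CPM of Il18r1 in controls and 382 in knockouts, above the means of 99.3 and 185 CPM in the dendritic-like cells. Interferon-gamma response genes were positive in 15 of 18 (median 0.51), with 8 that did not overlap against 10.5% of all genes tested, and none passed. Among the 8 were the GTPase genes Gbp7 (0.72, edgeR adjusted p = 0.411) and Ifi47 (0.48, 0.639). T cells had higher levels of both, with means of 207 and 238 CPM of Gbp7 in controls and knockouts against 96.3 and 163 CPM, and 225 and 238 CPM of Ifi47 against 97.4 and 134 CPM. Type I interferon response genes were positive in 19 of 23 (median 0.37), and none passed. Of these 23, 1 was higher in knockouts without overlap and 2 were lower, against 10.5% of all genes tested in each direction. NF-kB genes were positive in 17 of 20 (median 0.21), Nfkb1 at 0.04 and Nfkbia at 0.48. Of 24 dendritic cell transcription factors 9 were positive, Spi1, which encodes PU.1, standing at -0.50 (adjusted p = 0.774) and Id2 at 0.46.

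All 24 cell cycle genes had positive values, with a median of 1.19, 17 that did not overlap and none that passed. Over all 8922 genes tested, 4292 were positive and 10.5% were higher without overlap. Mki67 had 144 and 224 CPM in controls and 449, 237 and 563 CPM in knockouts (log2 1.15 ± 0.32 (SE), edgeR adjusted p = 0.411), and Top2a 88.9, 165, 344, 201 and 470 (1.40 ± 0.34, adjusted p = 0.334, and 0.0185 with DESeq2). Knockout 2 lay close to control 2 for both. T cells had 351, 374, 362, 442 and 695 CPM of Mki67, so knockout 3 was highest there too. After thinning, Mki67 was detected in 12.95%, 13.8%, 20.6%, 18.6% and 28.6% of the dendritic-like cells and in 13.8%, 15.1%, 14.4%, 18.8% and 24.4% of T cells. Whether the cycling RNA came from T cells was not tested. Immediate early and heat shock genes were negative in 21 of 26 (median -0.36), Dnaja1 at -0.72 (adjusted p = 0.597) and Hsp90ab1 at -0.44, and none passed. In the hypoxia and glycolysis list 7 of 17 were positive, among them Hif1a with 171, 151, 239, 308 and 248 CPM (0.72, adjusted p = 0.334).

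Smaller sets gave no call. Pattern recognition genes were positive in 11 of 17, with Pycard at -0.12 and Aim2 at 0.26, and lectins and uptake receptors in 7 of 17, with Cd300a at -0.19. Growth factor and cytokine receptors were positive in 6 of 20, the most abundant being Ifngr1 at 0.41 (adjusted p = 0.72), and regulatory metabolism genes in 5 of 8, with the ectonucleotidase genes Entpd1 at 0.61 and Nt5e at 0.73.

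The difference between genotypes was also compared with that in C1q macrophages of the same libraries, in a model with a term for the interaction. None of 12276 genes was called with edgeR and none with DESeq2, and 605 and 242 genes had an unadjusted p under 0.05. The smallest p among genes with a larger difference in dendritic-like cells were those of Diaph3 (log2 1.56 ± 0.25 (SE), edgeR adjusted p = 0.169), Rrm2 (1.71 ± 0.35, 0.461) and Ifng (3.29 ± 0.70, 0.461). In the other direction they were those of Vcan (-5.47 ± 1.11), Fos (-1.37 ± 0.31) and Gpx3 (-7.12 ± 1.63), each at an adjusted p of 0.461. Vcan was one of the monocyte genes that the rule limits, and Gpx3 is a tubule gene. Ccl17 differed by -0.72 in this term (adjusted p = 1), and C1q macrophages had 0.485 and 0 CPM in controls and 4.95, 3.52 and 1.54 CPM in knockouts.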

How the data were processed

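The 5 single-cell 3′ RNA libraries held 31053 genes and 40778 barcodes. The deposited values are raw UMI counts; the file headers name Cell Ranger 8.0.0 as the counting software, and Seurat 5.1.0 and mm10 come from the submitters' processing notes. Totals ran from 31104939 to 152275841 UMIs per library. Cells were retained and classed by the limits stated in the report, UMIs were summed per library and class, and the sums were tested with edgeR 4.0.16 (filterByExpr, TMM, quasi-likelihood, no block, Benjamini-Hochberg threshold 0.05). The interaction model had a term for each library. Each SE of an edgeR log2 difference was derived as its size divided by the square root of the quasi-likelihood F value. Shares were tested by exact permutation. DESeq2 1.42.0, other filters, rules and left-out libraries were alternatives. Named genes were, in each direction, the 12 of smallest p whose libraries did not overlap, without receptor segments, unnamed models, sex-linked, ribosomal and mitochondrial genes and markers of other cells, plus a set of dendritic cell genes and the most abundant genes of 18 lists. Ccl22, Xcr1, Clec9a, Mki67, Top2a, Mgl2, Il21, Cd3e and the cell subsets were chosen after their values were seen. Members and lists were chosen with earlier results of these data known. Positions are from GENCODE M21, which held 31011 of the 31053 gene IDs, and promoters from RefSeq, which matched 18 of 27 genes looked up. Replicate numbers were not taken to pair libraries, because the labels name no pairing. No doublet caller was run. Some genes of the lists are not reported here. The scripts were tested on simulated data. Tools were R 4.3.3, Python 3.11.15, numpy 2.4.6, scipy 1.17.1 and pandas 2.3.3.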

Additional observations from a re-analysis of the deposited data

How the results depend on the processing

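With 5 libraries, 14 cells in knockout 3 and 51.2% of the cells in control 1, counts of called genes moved with the fit. Against 3 genes called with edgeR between genotypes, DESeq2 called 21, no filter on low counts 202, the replicate block 8, the stricter cell filter 5, at least 3 panel genes 9, genes enriched in dendritic-like cells 0 of 589, the Cd209a subset 1, and the libraries other than control 1 and knockout 3 gave 83. Leaving out 1 library gave 0 (without knockout 1) to 50 (without control 1, where control 2 with its high tubule list stood alone and was taken to vary like the knockouts). Deviations from group means correlated at 0.135 between the libraries numbered 1 and at -0.042 between those numbered 2. The deviations of 2 controls mirror each other, so these values cannot show whether libraries were paired. For the interaction, where none was called, no filter gave 114, at least 3 panel genes 4, and leaving out 1 library 0 to 92. The fit of cells without T cell transcripts could not be made, since only knockout 2 had 10 such cells, and fits on 3 panel genes and on the Cd209a subset left out knockout 3. The direction of the share held in all 20 alternatives. Of 823 comparisons on 54 named genes 712 kept side and direction, 56 gained and 11 lost a call, and 44 turned, in 15 genes; apart from Ccl17 (-0.70 in the Cd209a subset) none of the 15 was called in the main comparison, and no cause was tested. With the replicate block log2 values turned to 0.031 for Clec10a, 0.027 for H2-Aa, 0.039 for Cd86, 0.29 for Cd40 and -0.44 for Il1b. In the Cd209a subset they were 0.0023 for Clec10a, -0.053 for Cd80 and -0.30 for Il1b. Among enriched genes they were 0.13 for H2-Ab1, 0.092 for H2-Aa, 0.15 for H2-Eb1, 0.012 for Ciita, 0.23 for Zbtb46 and 0.19 for Cd40. With control 1 and knockout 3 left out they were 0.44 for Clec10a, 0.061 for Kmo, 0.028 for H2-Ab1, 0.21 for H2-Aa, 0.12 for H2-Eb1, 0.094 for Cd74, 0.25 for Zbtb46, 0.69 for Cd86, 1.35 for Cd40, -0.35 for Il1b, 0.045 for Xcr1 and 0.25 for Clec9a. Il1b also turned with the stricter filter (-0.019), 3 panel genes (-0.50), without cells with B cell genes (-0.094) and without each gene's top cell (-0.098), and Cd40 without cells with B cell genes (0.016). Leaving out 1 library gave -0.67 to 0.21 for Clec10a, -0.48 to 0.032 for H2-Aa, -0.43 to 0.0051 for H2-Eb1, -0.34 to 0.21 for Zbtb46, -0.61 to 0.53 for Cd86, -0.66 to 1.12 for Cd40, -0.36 to 0.44 for Il1b and -1.08 to 0.043 for Clec9a. Alternatives on cells with B cell genes, the Cd209a subset, enriched genes, the top cell and the 3 remaining libraries were chosen after seeing the data.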
